A study of Mus musculus with 12 samples.

Results

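The cytosolic ribosomal protein genes encode the protein part of the ribosome. They were taken as the mouse symbols Rpl or Rps followed by a digit, without the Rps6k kinases and the -ps pseudogenes, together with Rplp0, Rplp1, Rplp2 and Rpsa. Of 46603 gene identifiers in the table, 92 matched. An expression filter over the 6 groups (filterByExpr of edgeR) kept 84 of these among 13167 genes tested. Of the 84, 77 are canonical ribosomal proteins, 46 of the large and 31 of the small subunit, and every canonical gene was kept. The other 7 are the paralogs Rpl22l1, Rpl36al and Rps27l, the related proteins Rpl7l1 and Rps19bp1, and Rps3a2 and Rpl37rt, which the annotation lists as pseudogenes. The 8 symbols left out by the filter were Rpl3l, Rpl10l, Rpl39l, Rps27rt, Rps4l, Rps3a3, Rps12l1 and Rpl6l, each with at most 16 counts in any library. The ribosomal protein genes Fau and Rack1, which have other names, fall outside the symbol rule and are given separately.

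The libraries were made from OT-I/Cas9 mouse CD8 T cells, which carry a transgenic receptor for an ovalbumin peptide and express Cas9 constitutively. The 6 groups of 2 libraries were control-guide cells with water as vehicle (here called control), control-guide cells with 100 µM AGN192403, a small molecule described as a ligand of TMED9, and cells with a guide against Tmed10, a cargo receptor of the early secretory pathway, with vehicle, each either resting or activated for 24 h on plate-bound anti-CD3. All cells had been activated once before, transduced, selected with puromycin and kept in interleukins 2, 7 and 15, so resting means without restimulation. The knockout is a selected population and no single clone, and the compound was given to control-guide cells, so the knockout and the compound were compared with the same control libraries. Whether the 2 libraries of a group came from separate cultures or mice is not stated, so the p-values measure the spread between libraries, which may be technical.

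Each ribosome carries one copy of nearly every ribosomal protein, apart from the acidic stalk proteins P1 and P2, which are present in several copies. Their mRNAs are among the most abundant of a dividing cell, and most begin at a cytosine followed by a run of pyrimidines, the terminal oligopyrimidine (TOP) motif, through which the kinase mTOR and the RNA-binding protein LARP1 set their translation and stability. T cells make many ribosomes when they leave quiescence. Stored TOP mRNAs can then be taken into polysomes, so the level of a ribosomal protein mRNA and the synthesis of the protein need not move together.

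The TOP motif lies at the first bases of the transcript. RefSeq promoters on GRCm38.p6 were at hand for 63 of the 84 genes, 57 of them canonical. A C at the annotated start followed by at least 4 C or T, read on the gene's strand, was present in 13 of 57 canonical genes (22.8%), in 0 of the 6 other genes and in 3.01% of the 27025 genes of the table. Annotated starts can lie some bases from the true start. Such a run anywhere in the 30 bases around the start was found in 64.9% of the canonical genes and in 40.3% of all genes. The letters CCGGAAG, on either strand of the 300-base promoter, were found in 42.1% and 9.93%. The lines give 15 bases before and 15 from the annotated start for 10 genes that the results below turn on, 6 with the run, which is in capitals, and 4 without it, chosen with their values known.
Rps27 (chr3:90213634-90213663, minus strand): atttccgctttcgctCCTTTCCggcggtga
Rps15a (chr7:118116133-118116162, minus strand): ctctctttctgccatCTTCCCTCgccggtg
Rpl28 (chr7:4792950-4792979, plus strand): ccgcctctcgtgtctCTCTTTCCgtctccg
Rplp2 (chr7:141447636-141447665, plus strand): tgcgtcagcgtcttcCTTTCgccgccggac
Rps6 (chr4:86857353-86857382, minus strand): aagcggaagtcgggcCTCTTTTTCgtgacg
Rpl35a (chr16:33056467-33056496, plus strand): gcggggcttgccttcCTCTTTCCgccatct
Rps7 (chr12:28635939-28635968, minus strand): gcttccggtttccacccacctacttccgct
Rpl10 (chrX:74270801-74270830, plus strand): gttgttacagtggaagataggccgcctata
Rpl7l1 (chr17:46782642-46782671, minus strand): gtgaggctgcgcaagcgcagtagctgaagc
Rps19bp1 (chr15:80264292-80264321, minus strand): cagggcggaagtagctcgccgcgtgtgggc

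The libraries held 9089350 to 16481840 counts. Levels are given as CPM, counts relative to the library's total after scaling by edgeR's TMM factors, and are shares of the counted RNA, so less of a transcript per cell and fewer cells that carry it cannot be told apart. Tmed10 stood at 55.9 to 65.1 CPM in the 4 knockout libraries and at 116 to 128 CPM in the 4 control libraries. Every CD8 T cell marker was detected in every library, whereas Cd4 was at most 1.29 CPM, and Ms4a1, Csf1r and Adgre1 were at or near 0. Nuclear RNA set some libraries apart. Malat1, a nuclear long RNA, was at 2594 and 1540.5 CPM in the resting controls, 1631 and 989 in the activated controls and 1833 and 752 in the activated AGN192403 libraries, each time higher in replicate 1, against 1099.7 and 1156, 733 and 751 and 437 and 400.3 CPM in resting AGN192403, resting knockout and activated knockout cells. The results below are therefore given also without resting control, activated control and activated AGN192403 replicate 1, a choice made after seeing the data. That fit leaves 1 library in each of these groups, so its spread comes from the other groups alone. Its counts of calls cannot show whether a result holds without the differences in nuclear RNA.

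Per kilobase of transcript the canonical genes spanned a wide range. Over all 12 libraries the highest mean levels included those of Rplp1, an acidic stalk protein, at 2114 CPM per kb, Rpl4, which lines the peptide exit tunnel, at 2055, Rps15 at 1534 and Rplp0, the base of the stalk, at 1455. The median canonical gene had 510.1 CPM per kb, with quartiles of 294 and 786. The 5 lowest of the 84 were Rpl36al at 91.8, Rpl7l1 at 52.9, Rps19bp1 at 23.5, Rps3a2 at 8.88 and the canonical Rpl24 at 2.09 CPM per kb. Levels of genes with near-identical copies are uncertain, since how reads with several places were counted is not given. Of the 65-base windows of Rpl24, 66.6% occur exactly in another gene, and over the canonical genes the median was 42.0%, with the highest value, 98.6%, in Rps27. As computed, levels did not follow these shares. The median was 448 CPM per kb in the 47 genes with under 50% shared and 544 in the 30 others. The Spearman rho over the 77 genes was 0.058. Both measures use the length of 1 reference transcript per gene, with 5115, 3642 and 2925 windows in Rps15a, Rps20 and Rpl18. Where that transcript is longer than the one expressed, both can come out low, so these values do not settle the relation. The comparisons below are within genes. Within genes the levels were even, with a median ratio of highest to lowest library of 1.24 and, among canonical genes above 100 CPM, a largest ratio of 1.59, in Rpl35.

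Summed over the 92 symbols, ribosomal protein genes took about 4% of the scaled counts, and their share was higher with the knockout or the compound than in controls. In resting cells the share was 4.09% and 4.16% in the 2 control libraries, 4.29% and 4.32% with AGN192403 and 4.41% and 4.40% in the knockout. These 3 resting groups did not overlap. In activated cells it was 3.94% and 4.24% in controls, 4.20% and 4.53% with AGN192403 and 4.52% and 4.47% in the knockout. Here, with TMM scaling, the knockout libraries stood above both controls, whereas one AGN192403 library lay between the controls. The group means ± SD (n = 2) were 4.12 ± 0.0448%, 4.31 ± 0.0231% and 4.40 ± 0.00933% at rest, in that order, and 4.09 ± 0.211%, 4.36 ± 0.235% and 4.49 ± 0.0324% when activated. As shares of raw counts, without TMM, activated controls had 3.89% and 4.13%, AGN192403 4.29% and 4.54% and the knockout 4.43% and 4.36%. Both AGN192403 libraries then lay above both controls. The sum is led by few abundant genes, and no test was made on it. The ratio of large to small subunit transcripts was 1.38 to 1.40 in the 6 resting and 1.41 to 1.45 in the 6 activated libraries, with no overlap.

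**Figure D1:**
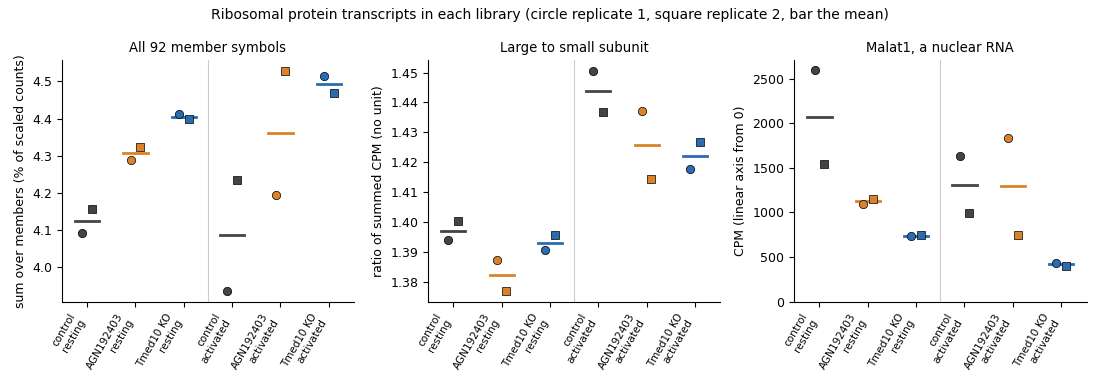
Summed level of the 92 ribosomal protein symbols (left, percent of TMM-scaled counts), ratio of large to small subunit CPM (middle) and Malat1 CPM (right) in each of the 12 libraries, with bars for the group means. The left and middle axes do not start at 0. The lowest share, 3.94%, is that of activated control replicate 1, and all 6 activated libraries lie above the resting ones in the middle plot.

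The 2 libraries of an activated group differed more in these genes than those of a resting group. The chi-square per member gene was 17.1, 14.9 and 11.8 in activated control, AGN192403 and knockout cells. It was 2.80 to 3.44 in the resting groups, where sampling noise alone gives about 1. Replicate 2 was higher than replicate 1 for 72 of 77 canonical genes in activated controls (median log2 difference 0.11) and for 72 of 77 with AGN192403 (0.12), against 50 and 51 of 77 in the same cells at rest (0.023 and 0.015). In these 2 activated groups replicate 2 was also the library with less Malat1, by 0.72 and 1.29 on the log2 scale. Resting controls had a like Malat1 difference of 0.75 with the small ribosomal difference given above. The part of nuclear RNA in the ribosomal differences was not tested.

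With Tmed10 knocked out, ribosomal protein mRNAs of activated cells were slightly higher. Of 84 genes, 34 rose and 0 fell in the edgeR quasi-likelihood test (adjusted p under 0.05 over all genes), where 10.8% of all genes tested rose and 8.78% fell. The median log2 fold change was 0.13, or 9.15% more, against 0.017 over all genes. Of the 46 large subunit genes 16 rose (median 0.12), and of the 31 small subunit genes 17 (0.15). Both knockout libraries lay above both controls for 51 of 84, against 31.5% of all genes. Without the multiple-test correction (p under 0.05), 1 gene was lower, and DESeq2 also called 0 lower.

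Rps27, a zinc-binding protein of the small subunit (ENSMUSG00000090733, chromosome 3, 90212522 to 90213651), had 353 and 342 CPM in the activated knockout and 262 and 291 in the activated controls. The groups did not overlap, and the log2 fold change ± standard error, given in this form throughout, was 0.33 ± 0.047, edgeR adjusted p = 9.94e-06. Rpl17, which lines the exit of the peptide tunnel, had 582 and 684 against 468 and 536 CPM (0.33 ± 0.062, edgeR adjusted p = 0.00033). Both genes are rich in shared windows (98.6% and 78.2%), so reads of their copies may take part. Rps7 of the small subunit body (ENSMUSG00000061477, chromosome 12, 28630854 to 28635953) had 399.6 and 427 against 313 and 355 CPM (0.31 ± 0.053, edgeR adjusted p = 0.000131). Rpl28 had 363 and 411 against 301 and 349 CPM (0.25 ± 0.064, edgeR adjusted p = 0.0073), with the lower knockout library close to the higher control. Rps15a had 593 and 591 against 495 and 506 CPM (0.24 ± 0.042, edgeR adjusted p = 0.00014). Its share of shared windows is low (4.59%, 235 of 5115), but its transcript of 5179 bases is the longest among the canonical genes. Reads of copies may thus take part in Rps15a too. Its libraries were the closest within each group of these genes. Rps12 of the small subunit beak had 808 and 846 against 654 and 746 CPM (0.24 ± 0.048, edgeR adjusted p = 0.000705). Among the genes with other roles, Rps6, the substrate of the S6 kinases, was at 0.17 ± 0.043, edgeR adjusted p = 0.00558, Rpsa, also known as the laminin receptor, at 0.19 ± 0.037, edgeR adjusted p = 0.000629, and Rpl5, which carries the 5S RNA, at 0.19 ± 0.044, edgeR adjusted p = 0.00207, whereas its partner Rpl11 was at 0.012 (0.919).

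The number of calls rested on single libraries. It was 8 without activated control replicate 1, 17 and 19 without knockout replicate 1 or 2, and 24 without the 3 libraries with high nuclear RNA, with medians of 0.068, 0.096, 0.13 and 0.069. The calls of Rps27, Rpl17, Rps7, Rps15a and Rpsa were kept in all 23 alternatives. The 4 nuclear RNAs moved with this comparison: 3 of 4 were lower and 0 higher, and their sum was 1359.6 to 1450.5 CPM in the knockout and 2378 to 3269 in controls. Their part in the result was not tested beyond leaving out those libraries.

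**Figure D2:**
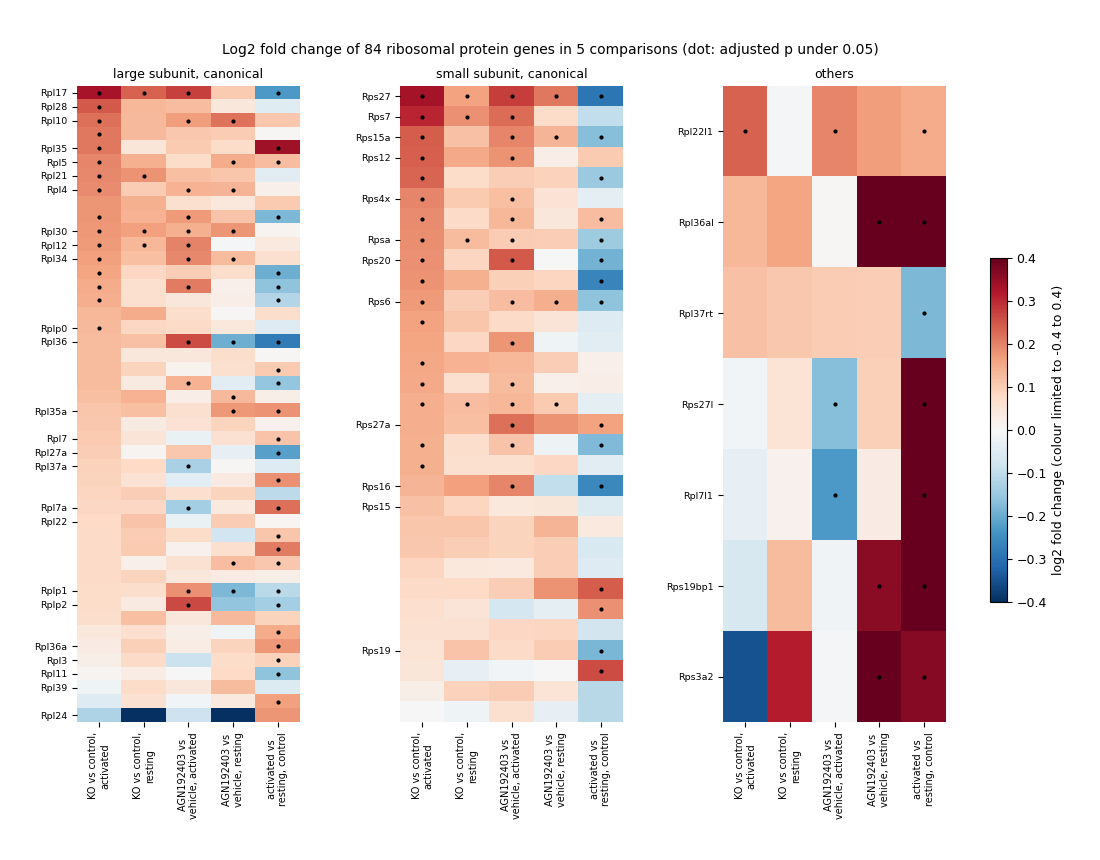
Log2 fold changes (colour, limited to −0.4 to 0.4) of the 84 ribosomal protein genes (rows, ordered by the first column within each panel, with labels for the genes described in the text) in 5 comparisons (columns), with a dot for an edgeR adjusted p under 0.05. Over the 3 panels the first column holds 34 dots, all on red, and the last 25 red and 22 blue.

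In resting cells fewer genes passed the test for the same comparison, and the test of the difference between the states, given with activation, called none. Of 84 genes 8 rose and 0 fell, against 2.81% and 4.63% of all genes. The median was 0.094 (6.76% more), with 0.0027 over all genes, and both knockout libraries lay above both controls for 65 of 84 (25.6% of all genes). At an unadjusted p under 0.05, 33 were higher and 1 lower, and DESeq2 called 5 higher and 0 lower. The genes that rose included Rpl12, Rpl17, Rpl21, Rpl30, Rps7, Rps27 and Rpsa. All 8 had also risen in activated cells, where they made up 8 of 34, and the 2 comparisons share no library.

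Rpl17 had 669.7 and 716 CPM in the resting knockout and 592 and 585 in resting controls (0.23 ± 0.062, edgeR adjusted p = 0.019). Rps27 had 381 and 375 against 339 and 336 CPM (0.16 ± 0.046, edgeR adjusted p = 0.0317). The groups were far apart next to the spread within them for Rps27, and less so for Rpl17, whose knockout libraries differed. Both calls were lost in 4 of 23 alternatives. Rpl30, a protein of the bridge between the subunits, had 289 and 285 against 256 and 257 CPM (0.16 ± 0.047, edgeR adjusted p = 0.0336). Rpl21 had 434 and 441 against 392 and 381 CPM (0.18 ± 0.051, edgeR adjusted p = 0.0333). Rps7 and Rpl12, the latter at the base of the stalk, were at 0.18 ± 0.053 and 0.13 ± 0.041 (edgeR adjusted p = 0.035 and 0.0476). Across the 84 genes the changes in activated and resting knockout cells had a Spearman rho of 0.48, given as a description, since genes are not replicates and each gene's value in both comparisons shares its sequence and its mapping. Calls at this size were not stable. Without any 1 of the 4 compared libraries 0 to 2 genes were called (0 and 1 without control replicate 1 or 2, 2 and 1 without knockout replicate 1 or 2). Without 1 library of another group, which sets only the shared spread and scaling, 10 to 39 were called (39 and 20 without activated AGN192403 replicate 1 or 2, 10 and 27 without activated control 1 or 2, 18 without either resting AGN192403 library and 19 without either activated knockout library). The median stayed at 0.051 to 0.13 over all 23 alternatives. Without the 3 libraries with high nuclear RNA, which leaves 1 resting control library, the median was 0.084. All 4 nuclear RNAs were lower in the resting knockout, with a sum of 2402 to 2440.4 against 3601 to 5314 CPM. Their part was not tested.

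AGN192403 gave a mixed picture in activated cells. Of 84 genes 28 rose and 4 fell, against 16.4% and 18.3% of all genes, with a median of 0.086 and −0.0097 over all genes. Small subunit genes had 15 of 31 higher and 0 lower, large subunit genes 12 of 46 higher and 2 lower. The AGN192403 libraries lay above both controls for 27 of 84 genes, close to the 30.5% of all genes that did so.

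Rps27 had 322 and 348 CPM with AGN192403 and 262 and 291 in the activated controls (0.28 ± 0.047, edgeR adjusted p = 4.09e-05). The stalk protein gene Rplp2 (ENSMUSG00000025508, chromosome 7, 141447370 to 141451585) had 512 and 503 against 393 and 454 CPM (0.26 ± 0.058, edgeR adjusted p = 0.000828), and its partner Rplp1 1165 and 1099.9 against 962 and 1031 (0.18 ± 0.047, edgeR adjusted p = 0.00308). The treated libraries of Rplp2 were close together while the controls were not. Rpl36 (ENSMUSG00000057863, chromosome 17, 56613416 to 56614243) had 197 and 194 against 146 and 180.3 CPM (0.26 ± 0.067, edgeR adjusted p = 0.00333), Rps20 666 and 725 against 544 and 629 (0.25 ± 0.056, edgeR adjusted p = 0.0011) and Rpl17 576 and 637 against 468 and 536 (0.27 ± 0.062, edgeR adjusted p = 0.00113). The 4 that fell were Rpl7l1, a paralog of Rpl7 that acts in assembly of the large subunit, Rps27l, Rpl7a and Rpl37a. Rpl7l1 had 169 and 173 against 199.8 and 201 CPM (−0.23 ± 0.044, edgeR adjusted p = 0.000183), with tight groups and a call kept in all 23 alternatives. The other 3 were at −0.17, −0.13 and −0.13 (edgeR adjusted p = 0.028, 0.0315 and 0.0385) and lost their calls in 11, 12 and 14 of 23 alternatives. The count moved with single libraries of both groups. It was 5 higher without activated control replicate 1 and 46 without replicate 2, and 52 and 11 without AGN192403 replicate 1 or 2, with medians from 0.021 to 0.17. Without the 3 libraries with high nuclear RNA, which leaves 1 library in each compared group, the median was 0.089.

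In resting cells with AGN192403, 15 of 84 genes rose and 2 fell, against 11.6% and 13.7% of all genes, at a median of 0.074 (−0.0063 over all genes). The largest rises above 10 CPM were those of Rpl36al, a retroposed copy of Rpl36a that is itself translated, and Rps19bp1, whose protein binds RPS19. Rpl36al had 47.6 and 50.2 CPM against 40.3 and 34.8 in controls (0.40 ± 0.082, edgeR adjusted p = 0.000679), and Rps19bp1 12.4 and 13.4 against 10.2 and 9.99 (0.36 ± 0.13, edgeR adjusted p = 0.0447). Rpl10, a protein near the catalytic centre that joins the large subunit late, had 489.9 and 494 against 418 and 427 CPM (0.22 ± 0.050, edgeR adjusted p = 0.00172). Rps27 had 389 and 393 against 339 and 336 CPM (0.21 ± 0.046, edgeR adjusted p = 0.00125). In all 4 the treated libraries lay above both controls. The call of Rps19bp1 was lost in 7 of 23 alternatives, and those of Rpl36al, Rpl10 and Rps27 were kept in all. Rpl30 and Rpl35a were at 0.18 ± 0.048 and 0.17 ± 0.060 (edgeR adjusted p = 0.00751 and 0.0349). The 2 that fell were Rplp1, with 1000.4 and 898 against 1073 and 1075 CPM (−0.18 ± 0.047, edgeR adjusted p = 0.00593), and Rpl36, with 177 and 169 against 199 and 197 (−0.19 ± 0.067, edgeR adjusted p = 0.0341). These calls of Rpl36 and Rplp1 were lost in 7 and 1 of 23 alternatives. Rplp2 was at −0.16 (0.0512). Rplp1 and Rpl36 are among the genes that rose with AGN192403 in activated cells. Of the 28 genes higher in activated cells and the 15 higher at rest, 8 were in both, among them Rpl4, Rpl10, Rpl30, Rpl34, Rps6, Rps15a and Rps27. The count was 6 and 8 without resting control 1 or 2, 4 without resting AGN192403 replicate 2 and 24 without either activated AGN192403 library. Without the 3 libraries with high nuclear RNA, which leaves 1 resting control library, the median was 0.066. Of the 4 nuclear RNAs 3 were lower and 0 higher with AGN192403 at rest, with sums of 2942 to 2955 against 3601 to 5314 CPM, and their part was not tested.

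**Figure D3:**
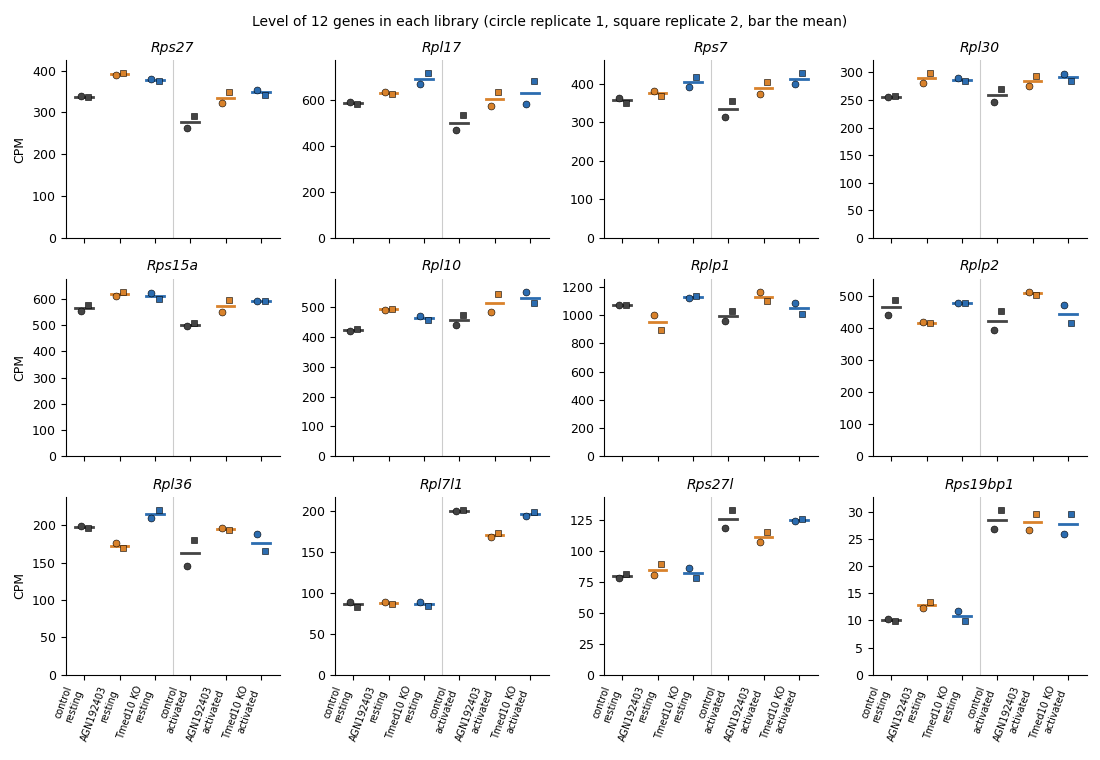
CPM (y axis from 0) of 12 ribosomal protein genes in each of the 12 libraries, 2 points per group, with bars for the group means. Rps27 is lowest in the activated controls, at 262 and 291 CPM, and Rpl7l1, Rps27l and Rps19bp1 are higher in all activated than in all resting libraries.

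Because the knockout and the compound share their controls, their values are set side by side and not compared. Rps27 was at 0.33 (knockout, activated), 0.16 (knockout, resting), 0.28 (AGN192403, activated) and 0.21 (AGN192403, resting), each a call. Rpl30 was at 0.17, 0.16, 0.14 and 0.18 in that order, each a call as well (edgeR adjusted p = 0.00943, 0.0336, 0.0208 and 0.00751). Of the 47 canonical genes with under 50% of shared windows 23, 5, 14 and 8 rose in the activated knockout, resting knockout, activated AGN192403 and resting AGN192403, and of the 30 others 10, 3, 13 and 4, with medians of 0.14, 0.092, 0.099 and 0.082 and of 0.13, 0.093, 0.080 and 0.061. Of the 13 canonical genes with the pyrimidine start 5, 1, 4 and 4 rose in the same order, and of the 44 without it 19, 3, 13 and 5, with medians of 0.11, 0.10, 0.10 and 0.072 and of 0.13, 0.087, 0.075 and 0.066. No test was made on these splits. Over the 77 canonical genes the change had a Spearman rho of −0.15 with GC content and 0.14 with transcript length in the activated knockout, and of −0.37 and 0.073 with resting AGN192403. With offsets for length and GC the medians were 0.10, 0.051, 0.085 and 0.045 in the order above.

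**Figure D4:**
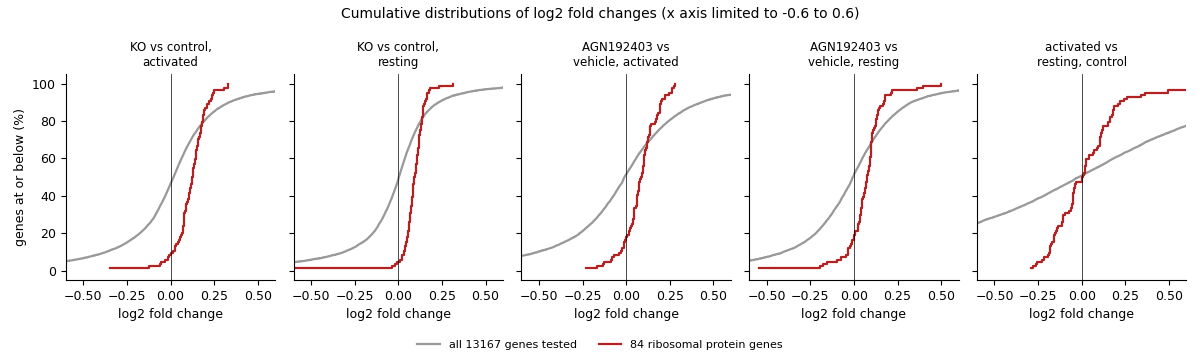
Cumulative share (y axis, percent) of genes at or below a log2 fold change (x axis) for the 84 ribosomal protein genes (red) and all 13167 genes (grey) in 5 comparisons. In the first 4 plots the red line is steeper and crosses 50% right of 0, at medians of 0.13, 0.094, 0.086 and 0.074, and in the last at 0.0065.

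Anti-CD3 restimulation moved ribosomal protein genes in both directions and over a narrower range than all genes. In controls 25 of 84 rose and 22 fell, against 36.4% and 37.4% of all genes, with a median of 0.0065. The quartiles of the members were −0.11 and 0.12, and those of all genes −0.61 and 0.53. Of the 7 non-canonical genes 6 rose, among them the 5 largest rises. Rps19bp1 (ENSMUSG00000051518, chromosome 15, 80260615 to 80264315) went from 10.2 and 9.99 CPM at rest to 26.9 and 30.3 CPM (1.50 ± 0.11, edgeR adjusted p = 5.9e-12). Rpl7l1 (ENSMUSG00000063888, chromosome 17, 46773907 to 46782672) went from 89.4 and 82.9 to 199.8 and 201 CPM (1.22 ± 0.048, edgeR adjusted p = 1.57e-17). Rps27l, a p53 target and paralog of Rps27, went from 78.2 and 81.0 to 118 and 132 CPM (0.65 ± 0.062, edgeR adjusted p = 8.58e-10). No activated library of these 3 genes overlapped a resting one, and their calls were kept in all 23 alternatives. Rps27 itself fell, from 339 and 336 to 262 and 291 CPM (−0.29 ± 0.047, edgeR adjusted p = 5.83e-06), so the paralogs moved in opposite directions.

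Among canonical genes of the large subunit 14 of 46 rose and 11 fell, and of the small subunit 5 of 31 rose and 10 fell (medians 0.022 and −0.054). Rpl35 rose from 95.6 and 90.3 to 110.0 and 125 CPM (0.34 ± 0.070, edgeR adjusted p = 0.000115). Rpl36 fell from 199 and 197 to 146 and 180.3 (−0.28 ± 0.067, edgeR adjusted p = 0.000649) and Rps16 from 196 and 193 to 147 and 179 (−0.26 ± 0.071, edgeR adjusted p = 0.00215). The activated controls of Rpl36 and Rps16 were far apart, and their calls were lost in 2 of 23 alternatives each. Rpl17 and Rpl27a were at −0.23 ± 0.062 and −0.22 ± 0.050 (edgeR adjusted p = 0.00207 and 0.000422). Without activated control replicate 1 the count of falls was 8, and without activated control replicate 2 or resting control replicate 1 the count of rises was 14 or 15. Offsets for length and GC turned the split to 14 higher and 37 lower (median −0.068), and without the 3 libraries with high nuclear RNA 27 rose and 13 fell. The summed level of 5 B cell markers was 137 to 143 CPM in resting and 29.7 to 33.1 CPM in activated controls, nearly all of it Ighm, with Ms4a1 and Cd79a at no more than 0.11 CPM. Of 8 myeloid markers the sums were 16.6 to 18.8 and 4.17 to 4.28 CPM, nearly all of it Cd68, with Lyz2 and Csf1r at or near 0.

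The other cells responded with similar counts of calls. In the knockout 27 rose and 16 fell (37.2% and 36.5% of all genes), and with AGN192403 22 and 17 (33.9% and 36.1%). Control and knockout cells share no library here, and their changes had a Spearman rho of 0.88 over the 84 genes. Control cells with vehicle and with AGN192403 share none either, and theirs had a rho of 0.65. Both are descriptions across genes. Rpl36, Rplp2 and Rplp1 had opposite signs with vehicle (−0.28, −0.13 and −0.11) and with AGN192403 (0.18, 0.28 and 0.26). The calls of the vehicle falls of Rplp2 and Rplp1 were lost in 13 and 15 of 23 alternatives. Rps19bp1 rose by 1.31 in the knockout and 1.13 with AGN192403, Rpl7l1 by 1.17 and 0.96 and Rps27l by 0.59 and 0.39 (edgeR adjusted p at most 5.95e-06). Rps16, Rpl36 and Rps19, a gene mutated in Diamond-Blackfan anemia, fell in the knockout (−0.28, −0.27 and −0.24), and with AGN192403 Rpl11 and Rps27 fell (−0.24 and −0.22). The difference between the knockout's and the control's response was called for 0 of 84 genes by edgeR, with 3 higher and 1 lower at an unadjusted p under 0.05 and 0 by DESeq2, where 3.07% and 1.89% of all genes were called. For Rps27 the difference was 0.17 ± 0.066 (adjusted p = 0.168). The difference between the AGN192403 and the vehicle response was called higher for 7 genes and lower for 4, against 8.62% and 11.1% of all genes. Single libraries moved these counts: the count higher was 3 without resting control 2 or activated control 1, 4 without activated AGN192403 2 and 14 without activated control 2 or activated AGN192403 1. The count of rises on activation was 14 without activated AGN192403 2 and 40 without activated AGN192403 1 with AGN192403 and 17 without resting knockout 2 in the knockout, and the count of falls 6 without activated AGN192403 1, 7 without resting AGN192403 2, 8 without resting AGN192403 1, 9 without resting knockout 1 or resting knockout 2 or activated knockout 1 or activated knockout 2 and 10 without activated control 2 with AGN192403 and 8 without resting knockout 1 and 9 without activated knockout 2 in the knockout.

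Several members have a paralog, and the pairs did not always move together. Rpl22, which T cell development requires, had 301 to 343 CPM over the 12 libraries and was called only with activation under AGN192403 (−0.12, edgeR adjusted p = 0.0205, lost in 13 of 23 alternatives). Its paralog Rpl22l1 had 94.6 and 97.4 CPM in resting and 105 and 108 in activated controls, 113 and 130.0 with AGN192403 and 133 and 116 in the knockout when activated. It rose in both activated comparisons (0.24 ± 0.061 with the knockout and 0.19 ± 0.062 with AGN192403, edgeR adjusted p = 0.00698 and 0.0155), and in the resting knockout it was at −0.0075 (0.977). The knockout libraries of Rpl22l1 were far apart, and the call was lost in 3 alternatives. Rpl36a was at 0.089 (0.218) where its copy Rpl36al rose with AGN192403 at rest. Rpl3, Rpl10, Rpl39 and Rps4x were expressed at 1014, 479.5, 131 and 819 CPM on average. The tissue-restricted paralogs Rpl3l, Rpl10l and Rpl39l, and Rps4l, annotated as a pseudogene, had at most 16 counts in a library. Rps27a, made as a fusion with ubiquitin, had 342 and 406 CPM with AGN192403 and 294 and 349 in controls when activated (0.22 ± 0.066, edgeR adjusted p = 0.0105), with libraries that overlapped.

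Setting knockout against AGN192403 directly, without the controls, 5 genes were higher and 1 lower in activated cells (13.0% and 7.34% of all genes), and 6 and 1 at rest (8.83% and 7.78%). In activated cells Rpl37a, Rpl7a and Rpl7l1 were higher in the knockout (0.22, 0.22 and 0.20, edgeR adjusted p = 0.0013, 0.00178 and 0.00212) and Rplp2 was lower (−0.19, 0.0208). At rest Rpl36, Rps16 and Rplp1 were higher in the knockout (0.31, 0.26 and 0.25, edgeR adjusted p = 0.0015, 0.0096 and 0.000391) and Rpl36al lower (−0.24, 0.0375). Neither share of the 84 was above the background. The count higher in activated knockout cells was 0 without activated knockout 2, 2 without activated AGN192403 1, 3 without resting AGN192403 1 or resting AGN192403 2 or activated control 2 or resting knockout 1 or resting knockout 2, 8 without activated control 1 and 32 without activated AGN192403 2, and at rest 3 without resting knockout 2, 11 without activated control 2 and 13 without activated AGN192403 1. The knockout and the compound differ in nature and exposure, so no likeness follows from the missing calls.

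Other genes of the same pathway gave context. Of 23 further TOP mRNAs tested (elongation and initiation factors, Tpt1, Npm1 and snoRNA host genes), 10 rose and 0 fell in the activated knockout, 5 and 0 in the resting knockout, 8 and 0 with resting AGN192403, and 8 and 8 with activated AGN192403. Over all genes 10.8% rose and 8.78% fell in the activated knockout, 2.81% and 4.63% in the resting knockout, 11.6% and 13.7% with resting AGN192403, and 16.4% and 18.3% with activated AGN192403, shares that also stand beside the counts of the lists that follow. The medians of the TOP mRNAs were 0.14, 0.11, 0.11 and 0.011. Eef1a1, the factor that brings tRNA to the ribosome, was at 7652 ± 139 CPM (SD, n = 2) in the activated knockout and 6315 ± 238 in controls (0.28 ± 0.036, edgeR adjusted p = 3.14e-06), and Tpt1 rose by 0.28. With activated AGN192403, Nap1l1, Hnrnpa1 and Snhg5 fell by 0.41, 0.35 and 0.42 and Snhg8 rose by 0.48. Of the ribosomal proteins named otherwise, Rack1 was at 0.14 ± 0.036, edgeR adjusted p = 0.00843 in the activated knockout and 0.14 ± 0.036, edgeR adjusted p = 0.00394 with activated AGN192403, and Fau at 0.082 and 0.25 (0.367 and 0.00109).

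The chaperones and importins that carry ribosomal proteins to the nucleolus were mostly higher on activation. Of 11, 10 rose and 0 fell in controls, against 36.4% and 37.4% of all genes, with Grwd1, the chaperone of RPL3, at 24.4 ± 2.42 CPM at rest and 79.6 ± 0.636 activated (1.69 ± 0.068, edgeR adjusted p = 2.18e-17), and Heatr3, the adaptor of RPL5, at 1.53 ± 0.054, edgeR adjusted p = 1.31e-18. The median of the list was 0.88, next to 0.0065 for the ribosomal proteins. At an unadjusted p under 0.05 the edgeR count was 10 higher and 0 lower. With activated AGN192403, 6 of 11 fell (all genes 18.3%), among them the importins Ipo5, Kpnb1 and Ipo7 (−0.33, −0.31 and −0.28), and 2 rose. In the activated knockout 2 rose, Bccip and Aamp (0.21 and 0.16), and in the resting knockout none was called (1 higher at an unadjusted p under 0.05). Among 22 regulators of TOP mRNAs and ribosomal protein kinases, 4 rose (18.2%, all genes 10.8%) and 3 fell (13.6%, all genes 8.78%) in the activated knockout. Eif4ebp1, the translation repressor that mTOR phosphorylates, was at 0.45 ± 0.053, edgeR adjusted p = 8.15e-07, Sesn2, a leucine sensor upstream of mTOR, at 0.37 ± 0.046, edgeR adjusted p = 2.39e-06, and Mtor at −0.35 ± 0.049, edgeR adjusted p = 9.45e-06. With activated AGN192403, 5 rose and 5 fell (22.7% each, near the 16.4% and 18.3% of all genes), with Eif4ebp1 at 0.69 ± 0.052, edgeR adjusted p = 8.9e-11, Sesn2 at 0.47 and Ddit4, an mTOR inhibitor, at −0.45. On activation Larp4, Myc and Mtor rose by 1.39, 1.22 and 1.03. Phosphorylation and translation were not measured in these libraries.

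**Figure D5:**
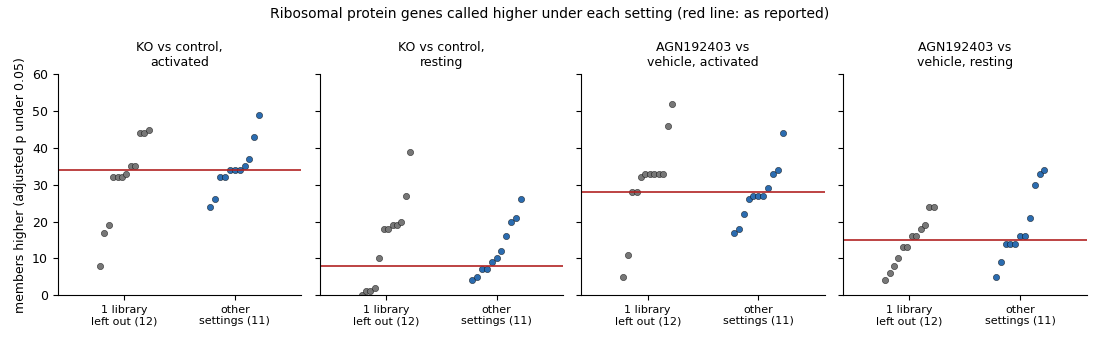
Number of ribosomal protein genes called higher (y axis) in 4 comparisons, with a point for each of the 12 fits that leave out 1 library and each of 11 other settings, and a red line at the reported count. The points run from 8 to 49 around 34 for the activated knockout and from 0 to 39 around 8 for the resting knockout.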

How the data were processed

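Polyadenylated RNA of 12 libraries (6 groups of 2) was prepared with a stranded kit and sequenced as 65-base single reads. The authors deposited raw counts per Ensembl gene; per the submitters' processing notes the reads were aligned with STAR 2.6.0c to GRCm38 (mm10) and counted with HTSeq, while the study's methods name another STAR version. Whether counting used strand, and how reads with several places were treated, is not given in the sources used here, so counts of members with near-identical copies or with overlapping genes are uncertain. Gene lists and members were chosen with earlier results of these data known.

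Counts were fitted with edgeR 4.0.16 (R 4.3.3), TMM scaling and filterByExpr over the 6 groups, with all 12 libraries in one quasi-likelihood model (common biological coefficient of variation 0.0306, 6 residual degrees of freedom). All contrasts (11) were tested two-sided, with Benjamini-Hochberg adjustment over 13167 genes and a threshold of 0.05. Standard errors are the log2 fold change over the square root of F. Identifiers without a symbol (598, 0.0709% of counts) stayed in the fit. Shared windows are 65-base windows of a gene's principal transcript found exactly in another gene of the reference. Genes that overlap it on the same strand were left out. The method was tested on simulated data. Alternatives were other size factors, no or another filter, DESeq2 1.42.0, only the compared libraries, a replicate block, offsets for length and GC, and each library left out.

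Members named in the text are the stalk, 5S, ubiquitin-fusion and paralog genes, and per comparison the largest rises and falls (up to 6 each in the 5 main comparisons, 3 in the others) that passed the test, reached 10 CPM in one group and had groups without overlap, besides the 5 highest and 5 lowest levels per kb. Some genes that meet this rule are not reported here. Members named beyond this, where a count of calls turned on them, were chosen after their values were seen.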

Additional observations from a re-analysis of the deposited data

Results flagged for a closer look

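The response to anti-CD3 differed between AGN192403-treated and vehicle-treated control-guide cells for 11 ribosomal protein genes, by the edgeR interaction test (AGN192403 minus vehicle, 2 libraries in each of 4 groups). The 7 higher and 4 lower are 8.33% and 4.76% of the 84 members, against 8.62% and 11.1% of all genes, shares that are not above those of all genes. The count higher was 3 without resting control 2 or activated control 1, 4 without activated AGN192403 2 and 14 without activated control 2 or activated AGN192403 1. In 7 genes the difference was positive. The 3 largest were those of Rpl36 and of the stalk genes Rplp2 and Rplp1, with log2 fold changes of −0.19, −0.16 and −0.18 for AGN192403 against vehicle at rest and 0.26, 0.26 and 0.18 when activated. Rpl36 had 199 and 197 CPM in resting and 146 and 180.3 in activated vehicle cells, and 177 and 169 and 197 and 194 with AGN192403, a change of −0.28 in vehicle and 0.18 in AGN192403 cells and a difference of 0.46 ± 0.095 (edgeR adjusted p = 0.00114). Rplp2 changed by −0.13 in vehicle and 0.28 in AGN192403 cells, a difference of 0.42 ± 0.082 (edgeR adjusted p = 0.000638), and Rplp1 by −0.11 in vehicle and 0.26 in AGN192403 cells, a difference of 0.36 ± 0.066 (edgeR adjusted p = 0.000295). For these 3 genes the call of the difference was kept in all 23 alternatives. The vehicle falls of Rplp2 and Rplp1 taken alone lost their calls in 13 and 15. Rps16 differed by 0.29 ± 0.10 (edgeR adjusted p = 0.038), Rps20 by 0.24 ± 0.079 (edgeR adjusted p = 0.0308), Rpl12 by 0.21 ± 0.058 (edgeR adjusted p = 0.012) and Rpl13a by 0.18 ± 0.061 (edgeR adjusted p = 0.0342).

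In 4 genes the difference was negative. Rpl36al changed by 0.50 in vehicle and 0.10 in AGN192403 cells, a difference of −0.39 ± 0.11 (edgeR adjusted p = 0.013). Rps27l changed by 0.65 in vehicle and 0.39 in AGN192403 cells, a difference of −0.27 ± 0.089 (edgeR adjusted p = 0.0359), and Rpl7l1 by 1.22 in vehicle and 0.96 in AGN192403 cells, a difference of −0.26 ± 0.069 (edgeR adjusted p = 0.0077). Rpl3 had 959 and 984 CPM in resting and 1048 and 1023 in activated vehicle cells, and 1009.7 and 1037 and 942 and 1009.7 with AGN192403, a difference of −0.16 ± 0.056 (edgeR adjusted p = 0.0448). The calls of Rpl36al, Rps27l, Rpl7l1 and Rpl3 were lost in 4, 11, 2 and 16 of 23 alternatives. Malat1 moved with this contrast as well, with 2594 and 1540.5 and 1631 and 989 CPM in resting and activated vehicle libraries and 1099.7 and 1156 and 1833 and 752 with AGN192403. Its part in the differences was not tested.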

How the results depend on the processing

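Each comparison was refitted under 23 alternatives, 12 of them leaving out 1 library. A group that loses a library, also in the fit with 3 libraries left out, keeps 1 and adds nothing to the spread. The median over the members kept its sign in all 23 for the knockout and for AGN192403 against control in both states, while counts of calls moved widely, and the cause was not tested. For the activated knockout, median (0.13) became 0.069 with 3 libraries left out. For the resting knockout, genes higher (8) became 21 with library totals, 5 with DESeq2, 26 with only the compared libraries, 20 with a replicate block, 4 with length and GC offsets and 16 with 3 libraries left out. For activated AGN192403, genes higher (28) became 44 with library totals, 17 with DESeq2 and 18 with only the compared libraries, and genes lower (4) became 1 with library totals, 1 with DESeq2, 1 with only the compared libraries and 2 with 3 libraries left out. For resting AGN192403, genes higher (15) became 9 with median-ratio size factors, 33 with library totals, 30 with no filter, 5 with DESeq2 and 34 with only the compared libraries, and genes lower (2) became 1 with library totals and 1 with DESeq2. For activation in controls, genes higher (25) became 14 with length and GC offsets, and genes lower (22) became 37 with length and GC offsets and 13 with 3 libraries left out, and median (0.0065) became −0.068 with length and GC offsets. For activation with AGN192403, genes higher (22) became 40 with 3 libraries left out, and genes lower (17) became 9 with median-ratio size factors, 8 with DESeq2, 8 with only the compared libraries and 9 with 3 libraries left out, and median (0.025) became −0.024 with length and GC offsets and 0.085 with 3 libraries left out. For activation in the knockout, genes lower (16) became 26 with library totals and 4 with no filter, and median (0.032) became 0.10 with no filter. For the difference in response of knockout and control, genes higher (0) became 1 with no filter and 1 with length and GC offsets. For the difference in response of AGN192403 and vehicle, genes higher (7) became 13 with length and GC offsets, and genes lower (4) became 1 with DESeq2 and 2 with only the compared libraries. For knockout against AGN192403 when activated, genes higher (5) became 3 with library totals, 19 with no filter, 3 with only the compared libraries, 14 with a replicate block and 3 with 3 libraries left out, and genes lower (1) became 3 with library totals, 0 with DESeq2 and 6 with 3 libraries left out, and median (0.048) became −0.00054 with library totals and −0.0082 with 3 libraries left out. For knockout against AGN192403 at rest, genes higher (6) became 16 with only the compared libraries and 13 with 3 libraries left out, and genes lower (1) became 0 with median-ratio size factors, 3 with library totals, 2 with no filter, 0 with DESeq2, 5 with only the compared libraries, 2 with a replicate block, 2 with length and GC offsets and 5 with 3 libraries left out. The summed level moved in resting AGN192403 4.31% to 4.39% with library totals, 4.25% with median-ratio size factors and 4.37% with pseudogenes added, resting knockout 4.40% to 4.44% with library totals, 4.43% with median-ratio size factors and 4.47% with pseudogenes added, activated knockout 4.49% to 4.40% with library totals and 4.56% with pseudogenes added and resting control 4.12% to 4.19% with pseudogenes added. Leaving out 1 library gave the activated knockout 8 to 45 higher and median 0.068 to 0.17, the resting knockout 0 to 39 higher, activated AGN192403 5 to 52 higher, 1 to 6 lower and median 0.021 to 0.17, resting AGN192403 4 to 24 higher and 0 to 3 lower, activation in controls 14 to 28 higher, 8 to 28 lower and median −0.041 to 0.055, activation with AGN192403 14 to 40 higher, 6 to 25 lower and median −0.041 to 0.11, activation in the knockout 17 to 31 higher, 8 to 23 lower and median −0.023 to 0.034, the difference in response of knockout and control 0 to 1 higher and median −0.017 to 0.057, the difference in response of AGN192403 and vehicle 3 to 14 higher, 0 to 11 lower and median −0.074 to 0.079, knockout against AGN192403 when activated 0 to 32 higher, 0 to 5 lower and median −0.030 to 0.12 and knockout against AGN192403 at rest 3 to 13 higher and 0 to 2 lower. Of 131 calls of named genes 49 were kept in every alternative and 82 were lost in at least 1. Rpl7 on activation went from 0.11 to −0.026 with length and GC offsets, and Rpl39 on activation with AGN192403, at −0.14, ranged from −0.22 without activated AGN192403 replicate 2 to 0.0040 without resting AGN192403 replicate 2.

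The replicate numbers are not stated to mark a shared mouse, culture or day. Same-numbered libraries deviated together little in most pairs of groups (correlations of −0.00507 to 0.239 over 15 pairs, 3 above 0.1). The rule that every pair exceed 0.1 was thus not met. It cannot tell whether some of the groups share a mouse, culture or day, and this was not tested. The 3 pairs above 0.1 join activated AGN192403, activated control and resting control with each other, the groups whose replicate 1 had more Malat1, and over the members alone activated control and activated AGN192403 had 0.491. By number, the share in activated AGN192403 was above that in activated controls both times, 4.20% against 3.94% and 4.53% against 4.24%. With the replicate block 43 genes were higher in the activated and 20 in the resting knockout, 33 and 21 with AGN192403, and 27 on activation. Rpl24, Rps3a2 and Rps19bp1 rest on few counts.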
